A study of Mus musculus with 9 samples.

Results

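The genes described here are 10 markers of macrophages and other immune cells in mouse pancreatic islets: C1qa, C1qb, C1qc, Cd68, Lyz2, Fcer1g, Tyrobp, Cd74, H2-Aa and Arhgdib. They were taken from a fixed list of symbols, matched to the Ensembl identifiers of the deposited count table, and followed across all 3 glucose concentrations. All 10 had counts and all 10 passed the filter on low counts, among 22048 genes in the table, 15985 with a count and 9739 tested. The islets came from wild-type mice of the outbred ICR stock, and 3 libraries were made at each of 3 glucose concentrations after 3 days of culture in RPMI medium with fetal bovine serum. The control group was kept in the medium's 11.8 mM glucose, and the other groups in 20 mM and 35 mM glucose, chosen to mimic hyperglycaemia and extreme hyperglycaemia. The highest concentration is 35 mM in the sample titles and the series design but 25 mM in the treatment text, and the 35 mM of the titles is used here. The labels name 9 mice and 3 samples per condition without saying whether each library came from 1 mouse, so p-values measure the spread between these libraries only.

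Islets hold a small resident population of macrophages, which clear dying cells, make growth factors and inflammatory cytokines, and present antigen. C1q, the recognition protein of the classical complement pathway, is assembled from chains encoded by C1qa, C1qb and C1qc, and tissue macrophages are a major source of it. Fcer1g and Tyrobp encode small membrane adaptors that pass signals from Fc and other immune receptors to the kinase Syk. Antigen-presenting cells also make MHC class II molecules, whose assembly needs the invariant chain encoded by Cd74.

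Each library held between 3228648 and 4559561 counts assigned to genes, and between 13366 and 13923 genes had a count. The insulin genes took 48.3% to 57.5% of those counts. The 10 markers together took 388 to 842 counts, or 0.0107% to 0.0217%, so their precision is limited by low counts. Other macrophage identity genes were sparse as well: Csf1r, the receptor for macrophage colony-stimulating factor, had 10 to 30 counts per library. Adgre1, which encodes F4/80, had 1 to 6 counts, and Mrc1, the mannose receptor, had 0 to 4. Of the T and NK cell list, 6 of the 10 genes in the table were at 0 in all 9 libraries, Cd3e and Cd8a among them. The rest had few counts per library: Cd4 0 to 10, Lck 0 to 5, Cd3d 0 to 3 and Cd2 0 to 1. The 10 counts of Cd4 were in 35 mM replicate 1.

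None of the 10 markers passed an adjusted p of 0.05 in any of the 3 comparisons. At 35 against 11.8 mM, 7 of 10 had a negative log2 fold change, where 50.4% of all genes tested did, with a median of −0.46 beside −0.003 over all genes. The lowest values belonged to Fcer1g (receptor signalling), C1qb (complement), Lyz2 (lysozyme), Cd68 and Arhgdib, while Cd74 and H2-Aa were positive with the library 35 mM replicate 1 and negative or near 0 without it. At 20 against 11.8 mM, 9 of 10 were negative beside 50.2% of genes, with a median of −0.20, and at 35 against 20 mM 6 of 10 were, beside 50.2%, with a median of −0.14. Fewer cells of a type and less RNA per cell cannot be told apart in such bulk libraries.

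At 35 against 11.8 mM, edgeR's quasi-likelihood test called 0 of 10 markers and 0.863% of all genes tested after Benjamini-Hochberg adjustment, and DESeq2 also called 0 markers. Fcer1g, C1qb and Lyz2 had an unadjusted p under 0.05 and a negative value, beside 4.89% of genes. The same 3 markers had all 35 mM libraries below all controls, as did 6.69% of genes. At 20 against 11.8 mM, both tools called 0 markers, edgeR called 0.185% of genes, and Arhgdib and Fcer1g passed unadjusted, beside 3.52% of genes. Tyrobp was the 1 marker whose 20 mM libraries all lay below the controls, as did 6.04% of genes. At 35 against 20 mM, both tools again called 0 markers, beside 0.0308% of genes by edgeR. There C1qb passed unadjusted, beside 2.56% of genes, and 0 markers lay wholly lower, beside 5.76%. The comparisons share libraries and are not independent of each other.

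**Figure D1:**
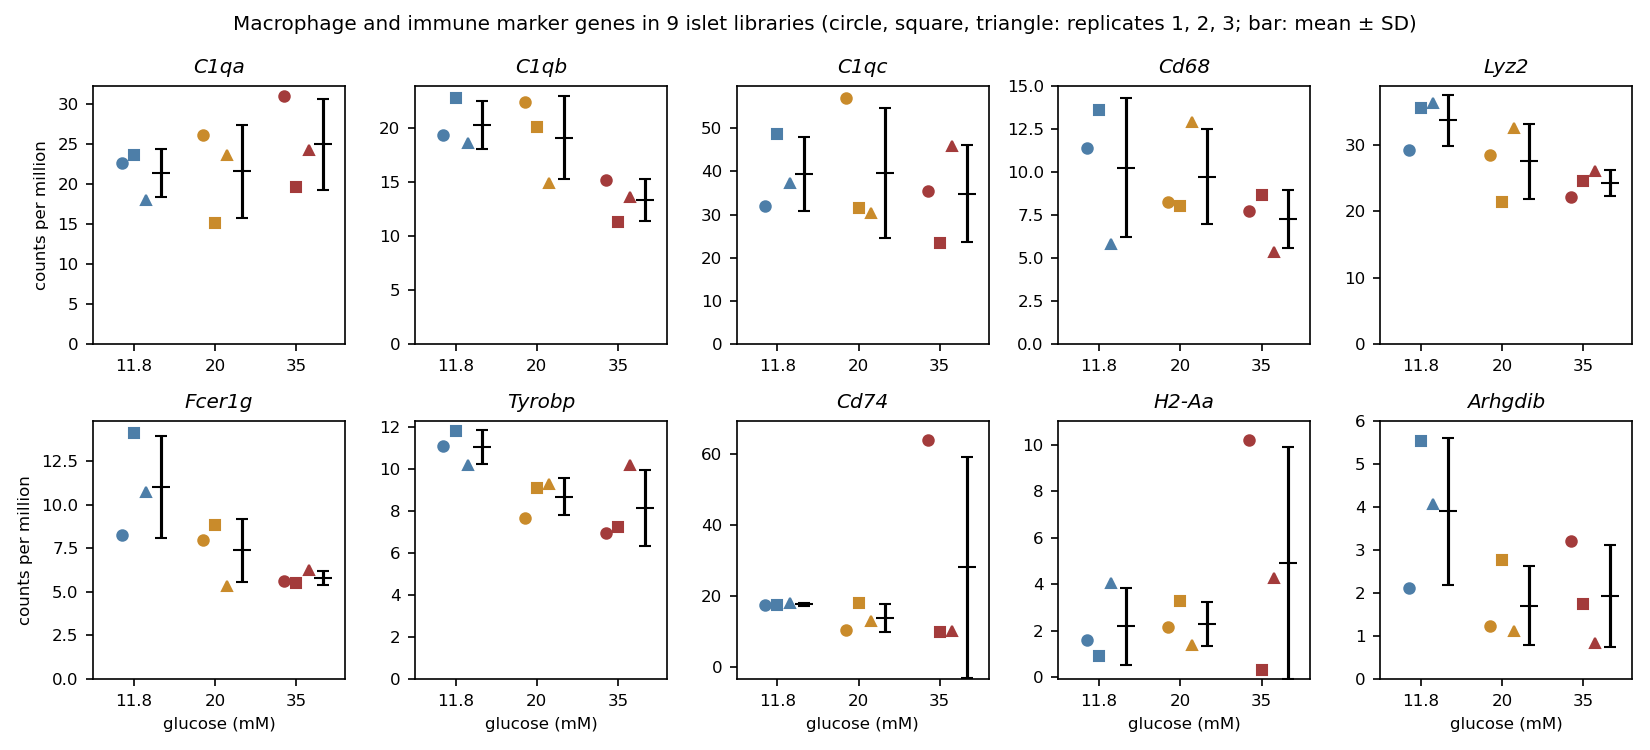
Level of each marker in counts per 1000000 (CPM, y axes, 1 scale per gene) in the 9 libraries, by glucose concentration in mM (x axes). Circles, squares and triangles are replicates 1, 2 and 3, and bars are the mean ± SD of 3 libraries. C1qb, Lyz2 and Fcer1g have all 35 mM libraries under all 11.8 mM libraries, and 35 mM replicate 1 stands at 63.9 for Cd74.

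The adaptor gene Fcer1g encodes the shared gamma chain of Fc receptors (chromosome 1, 171229572 to 171234365, minus strand, GRCm38). Its level was 8.23, 14.1 and 10.7 CPM in the 11.8 mM libraries, 7.98, 8.81 and 5.34 at 20 mM, and 5.61, 5.49 and 6.23 at 35 mM. All 3 libraries at 35 mM lay below all 3 at 11.8 mM, while the 20 mM libraries overlapped both groups. The log2 fold change at 35 against 11.8 mM was −0.94 ± 0.28 (SE), with an unadjusted p of 0.00241 and an adjusted p of 0.138 from edgeR. The value came from 19 to 22 counts per library at 35 mM and 31 to 61 at 11.8 mM. One library decided the call: without 11.8 mM replicate 1 the log2 fold change was −1.11 and the adjusted p 0.0495 in edgeR's test, the lowest of a range of 0.0495 to 0.677 over 17 alternatives.

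Tyrobp encodes the other adaptor, DAP12 (chromosome 7, 30413760 to 30417585, plus strand). It stood at 11.1, 11.8 and 10.2 CPM at 11.8 mM, at 7.67, 9.06 and 9.27 CPM at 20 mM, and at 6.95, 7.23 and 10.2 CPM at 35 mM. Every 20 mM library lay under every 11.8 mM library, and 35 mM replicate 3 lay with the controls. The log2 fold changes were −0.35 ± 0.25 (SE) at 20 mM and −0.44 ± 0.25 at 35 mM against 11.8 mM, with adjusted p-values of 0.793 and 0.571 from edgeR. Of the 18 listed receptors and kinases that work with the adaptors, 17 were in the table and 2 passed the filter on low counts. Neither passed the test: Fcgr3, an Fc receptor for IgG, was at −0.29 (−0.11 without 35 mM replicate 1) and Plcg2, a phospholipase downstream of Syk, at 0.05 on the log2 scale at 35 against 11.8 mM. The summed level of these receptors and kinases was 19.7 to 22.8 CPM at 11.8 mM and 18.4 to 22.6 CPM at 35 mM, which overlap over almost their whole range.

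The C1q genes lie side by side on the minus strand of chromosome 4: C1qb at 136880129 to 136886187, C1qc at 136889804 to 136893065 and C1qa at 136895917 to 136898803. C1qb stood at 19.4, 22.8 and 18.6 CPM at 11.8 mM, at 22.4, 20.1 and 14.9 CPM at 20 mM, and at 15.2, 11.3 and 13.6 CPM at 35 mM. The 35 mM libraries were all below the controls, whereas 35 mM replicate 1 overlapped the 20 mM range. C1qb had log2 fold changes of −0.60 ± 0.21 (SE) against 11.8 mM, with an adjusted p of 0.246, and −0.51 ± 0.21 against 20 mM, with an adjusted p of 0.905, both from edgeR. Its unadjusted p-values were 0.00726 and 0.0215.

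C1qa, in contrast, was at 22.6, 23.7 and 18.0 CPM at 11.8 mM, at 26.1, 15.1 and 23.6 CPM at 20 mM, and at 31.0, 19.7 and 24.3 CPM at 35 mM. The groups overlapped, and the log2 fold change at 35 against 11.8 mM was 0.22, with a 95% interval of −0.20 to 0.64. C1qc was at 32.1, 48.7 and 37.4 CPM at 11.8 mM, at 57.1, 31.5 and 30.3 CPM at 20 mM, and at 35.5, 23.4 and 45.8 CPM at 35 mM. It varied within each group by more than the group means differed, and its log2 fold change at 35 against 11.8 mM was −0.18, with an interval of −0.82 to 0.46.

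The ratio between the chains differed from library to library. The ratio of C1qa to C1qb counts was 1.16, 1.04 and 0.969 at 11.8 mM, 1.16, 0.75 and 1.58 at 20 mM, and 2.04, 1.74 and 1.79 at 35 mM. Every 35 mM library had a higher ratio than each of the other 6. This ratio was picked after the values were seen and was not tested. The ratio of C1qc to C1qb counts overlapped between the groups, at 1.66 to 2.13 at 11.8 mM and 2.08 to 3.38 at 35 mM.

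Of 16 listed complement genes other than C1q, all were in the table, 7 were tested and none passed. Their median log2 fold change at 35 against 11.8 mM was 0.18, and 3 of 7 were negative. C3ar1, the receptor for the C3a fragment, had the smallest p among them, at −1.04 ± 0.44 (SE) with an adjusted p of 0.387 from edgeR. Calr, a chaperone that can also bind C1q, was at 0.25.

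By a measure of likeness across all 9 libraries, Pearson's r of log2 CPM with the summed C1q counts, the closest of 7617 genes were Ttc4 (0.938), Rad17 (0.934), Zfp326 (0.902), Msantd4 (0.902) and Gins4 (0.896). None of these 5 is on the macrophage lists. The 9 points are the same libraries for every gene and share their depth, and the values are a description.

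Cd68 and Lyz2 encode proteins of the phagocytic compartment, a glycoprotein of late endosomes and lysosomes and the bacterial cell wall enzyme lysozyme M. Lyz2 (chromosome 10, 117277331 to 117282321, minus strand) was at 29.2, 35.5 and 36.3 CPM at 11.8 mM, at 28.5, 21.4 and 32.6 CPM at 20 mM, and at 22.2, 24.6 and 26.0 CPM at 35 mM. Again no 35 mM library reached the lowest control, and its log2 fold change was −0.47 ± 0.18 (SE), with an unadjusted p of 0.0129 and an adjusted p of 0.302 from edgeR. Lyz2 has a close relative, Lyz1, so how reads were shared between the genes in the authors' counting is uncertain. Cd68 (chromosome 11, 69664213 to 69666153, minus strand) ranged from 5.80 to 13.6 CPM at 11.8 mM, 8.05 to 12.9 at 20 mM and 5.38 to 8.68 at 35 mM. Its groups overlapped, with a log2 fold change of −0.52 ± 0.30 at 35 against 11.8 mM and an adjusted p of 0.586 from edgeR.

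Arhgdib encodes an inhibitor of small GTPases found mainly in blood cells (chromosome 6, 136923655 to 136941899, minus strand). It had 3 to 24 counts per library, and its exons overlap those of Pde6h on the opposite strand, so its counts are uncertain. Its level was 2.12, 5.53 and 4.06 CPM at 11.8 mM, 1.23, 2.77 and 1.12 CPM at 20 mM, and 3.21, 1.74 and 0.849 CPM at 35 mM. The groups overlapped throughout. Its log2 fold change at 20 against 11.8 mM was −1.16 ± 0.52 (SE), the lowest of the 10 markers there, with an adjusted p of 0.573 from edgeR. At 35 against 11.8 mM it was −1.0 ± 0.51, with an adjusted p of 0.508.

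Cd74 and H2-Aa, the MHC class II genes of the list, were both set apart by 1 library, 35 mM replicate 1. Outside that library, Cd74 at 35 mM lay below every 11.8 mM library, whereas H2-Aa overlapped the controls. Cd74 (chromosome 18, 60803848 to 60812652, plus strand) stood at 17.3, 17.5 and 18.0 CPM at 11.8 mM, at 10.4, 18.1 and 12.9 CPM at 20 mM, and at 63.9, 9.83 and 10.2 CPM at 35 mM. In 35 mM replicate 1 it had 239 counts and made up 31.7% of the counts of the 10 markers, against 6.07% to 13.1% in the other 8 libraries. H2-Aa, which encodes the alpha chain of the class II molecule H2-A (chromosome 17, 34282744 to 34287823, minus strand), was at 1.59, 0.922 and 4.06 CPM at 11.8 mM, at 2.15, 3.27 and 1.40 CPM at 20 mM, and at 10.2, 0.289 and 4.24 CPM at 35 mM. H2-Aa was thus highest in the same library as Cd74, with 38 counts there and 1 to 15 elsewhere.

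Each sample had been sequenced as 3 barcoded sub-libraries, and the high Cd74 level of 35 mM replicate 1 was present in every one. Its sub-libraries held Cd74 at 55.6 to 90.9 counts per 1000000 gene counts, while the 24 sub-libraries of the other samples held 4.69 to 26.6. H2-Aa was at 4.99 to 16.8 in those sub-libraries and at 0 to 6.93 in the other 24, so its ranges overlapped.

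The fits followed this 1 library. With all 9 libraries, Cd74 was at 0.68 ± 0.76 (SE) on the log2 scale at 35 against 11.8 mM and H2-Aa at 1.22 ± 0.86, with adjusted p-values of 0.856 and 0.712 from edgeR. Without 35 mM replicate 1, Cd74 turned to −0.81 with an adjusted p of 0.259 from edgeR (0.259 to 0.987 over 19 alternatives), and H2-Aa was at 0.10. C1qa was then at 0.03 and Arhgdib at −1.59. The number of negative markers rose from 7 to 8 of 10 without the library, and their median was −0.49.

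**Figure D2:**
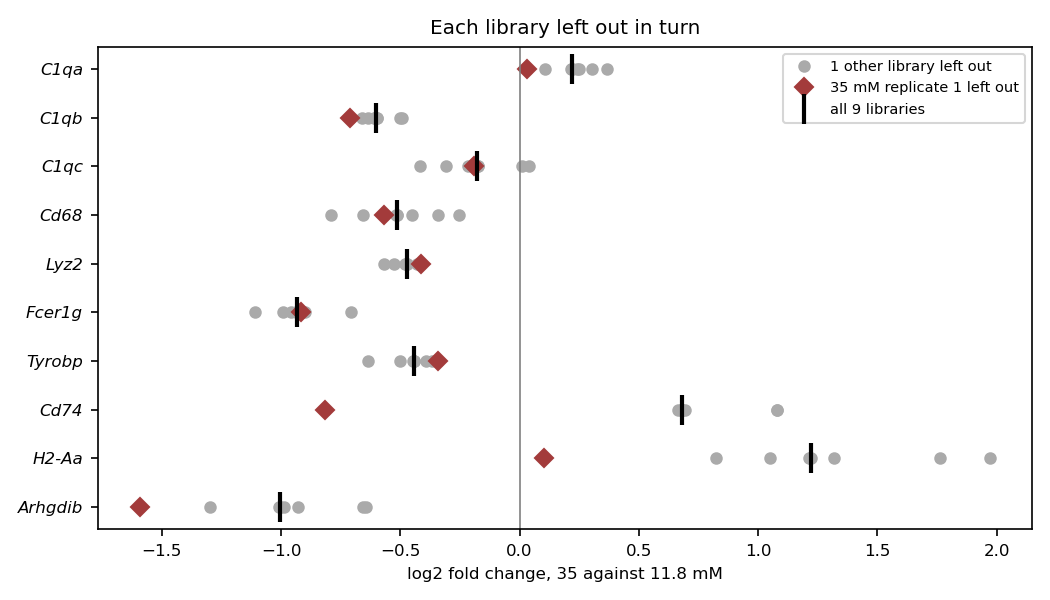
Log2 fold change of each marker at 35 against 11.8 mM (x axis) with each library left out in turn. Black lines are the values with all 9 libraries, grey points leave out 1 of the other 8 libraries, and red diamonds leave out 35 mM replicate 1. Cd74 is at −0.81 without that library and positive in each of the other fits.

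Which other transcripts stood apart in 35 mM replicate 1 was asked after its Cd74 level was seen. Among the 7638 genes that averaged 5 CPM or more in the other 8 libraries, Lcn2 and C3 were, besides Cd74, at least 2 times as high there as in each other library. By the same rule, with the mean taken over the remaining 8 libraries each time, 35 mM replicate 3 had 1 such gene and the other 7 libraries had 0. Cxcl13 and Saa3 averaged less than 5 CPM elsewhere and were picked because they were high in this library. Cxcl13, a chemokine that attracts B cells, had 469 counts in this library and 1 to 11 in the other 8, or 125 CPM against 0.265 to 3.19. Lcn2, which encodes an iron-siderophore binding protein of innate defence, was at 81.3 CPM against 11.6 to 35.3. Complement C3 was at 23.3 CPM against 5.51 to 11.3, and Saa3, an acute phase protein, at 22.5 CPM against 1.26 to 11. C1s1, a complement protease also chosen after its values were seen, had 24 counts there and 0 to 6 in the other 8 libraries.

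Of 13 other listed genes of the class II pathway, 12 were in the table, 4 were tested and none passed. Ctss, a protease that trims the invariant chain and also a macrophage marker, was at −0.46 ± 0.21 (SE) at 35 against 11.8 mM with an adjusted p of 0.438 from edgeR, and at −0.20 ± 0.18 without 35 mM replicate 1. Ifi30, a thiol reductase of antigen processing, was at 0.09, and at 0.22 without that library. The list did not move as one in 35 mM replicate 1. There Ifi30 was within the range of the other 8 libraries, at 8.02 CPM against 5.51 to 13.6. H2-Ab1, the beta chain partner of H2-Aa, was at 16.3 CPM against 1.70 to 8.71, and H2-Eb1, a beta chain of H2-E, had 18 counts against 0 to 3. Ctss was the lowest of the 9 libraries there, at 20.6 CPM against 38.3 to 57.4, as was H2-DMa, which helps load peptides, with 5 counts against 6 to 11. The summed list was the lowest of the 9 as well, at 52.7 CPM against 56.6 to 74.8. Ctss was the largest part of that sum in every library. The low sum therefore reflects Ctss and does not describe H2-Ab1 and H2-Eb1, which were highest there. Ciita, the class II transactivator, had 4 counts there and also 4 in 11.8 mM replicate 1. The B cell marker Ms4a1 had 8 counts in 35 mM replicate 1 and 0 in the other 8 libraries. Cd79a, a chain of the B cell receptor complex and the 1 tested gene of the B cell list, was at −0.21 ± 0.32 (SE) at 35 against 11.8 mM, with an adjusted p of 0.889 from edgeR, and at −0.61 without 35 mM replicate 1. The part of B cell markers in the Cd74 level was not tested.

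The remaining markers of the 10 did not share the pattern. The summed level of the 8 markers other than Cd74 and H2-Aa was 127.5 CPM in 35 mM replicate 1, within the 102.1 to 175.7 CPM of the other libraries. C1qa was 1.19 times its highest value elsewhere, whereas C1qb, C1qc, Lyz2, Tyrobp, Cd68 and Fcer1g stood at 0.667 to 0.399 times theirs.

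**Figure D3:**
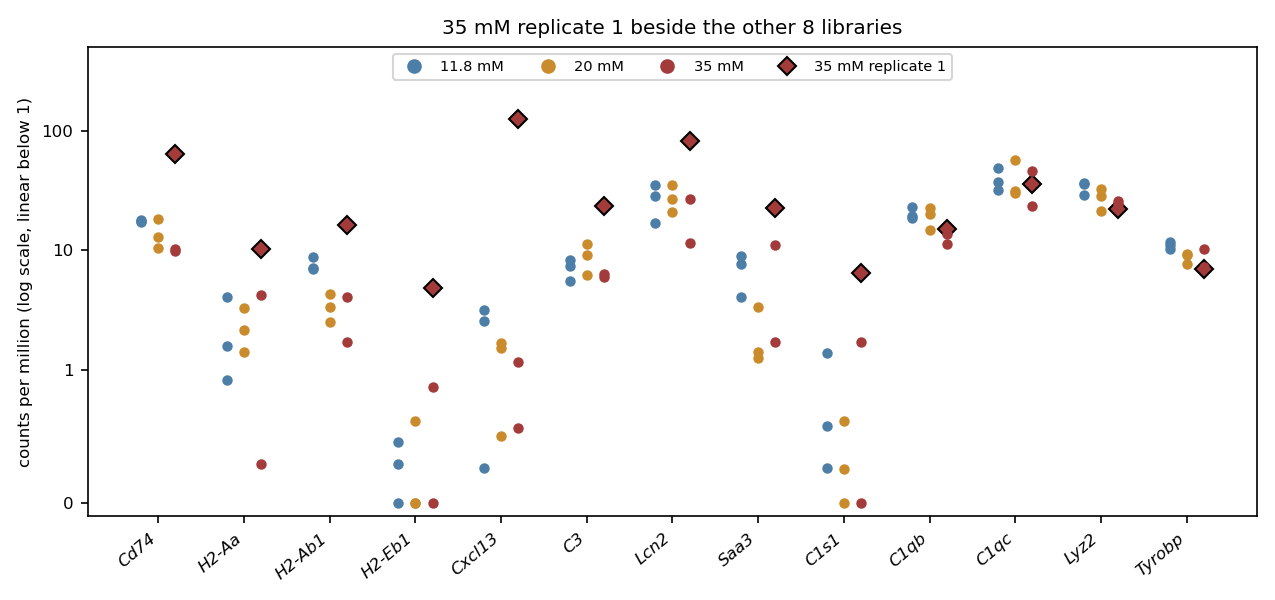
Level in CPM (y axis, log scale that is linear below 1) of Cd74, H2-Aa, other class II genes, inflammatory genes and 4 more markers in 9 libraries. Points are libraries coloured by glucose concentration and diamonds are 35 mM replicate 1. Cxcl13 reaches 125 in that library, C1qb, C1qc and Lyz2 lie within the range of the other 8, and Tyrobp, at 6.95, lies just under it.

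Class II promoters share a conserved box, the Y box, whose core is bound by NF-Y. The stretches before the RefSeq starts of H2-Aa and H2-Eb1 are shown because both hold CTGATTGG. Both genes were also picked for having their highest level in 35 mM replicate 1. The stretches of 250 bases searched for C1qb, C1qc, Cd68, Lyz2, Fcer1g and Arhgdib did not hold CTGATTGG on either strand. Cd74 and H2-Ab1 were also highest in that library, but their stretches were not examined. The matches shown are therefore not a share of the genes high there. They are 120 bases each, from GRCm38.p6 and thus not from ICR mice, written 5′ to 3′ on the gene's strand, with CTGATTGG in capitals. The H2-Aa stretch is chr17:34287824-34287943 (minus strand) and the H2-Eb1 stretch chr17:34305747-34305866 (plus strand).
H2-Aa: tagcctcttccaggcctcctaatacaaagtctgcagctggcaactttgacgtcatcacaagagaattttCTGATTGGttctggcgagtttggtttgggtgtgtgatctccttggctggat
H2-Eb1: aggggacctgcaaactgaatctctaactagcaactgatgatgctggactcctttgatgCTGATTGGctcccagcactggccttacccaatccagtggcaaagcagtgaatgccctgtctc
The match begins 51 bases before the start in H2-Aa and 62 bases before it in H2-Eb1. On either strand, CTGATTGG occurs in 1258 of 32851 RefSeq windows of 250 bases before a start, or 3.83%. A match describes these letters and not binding in the islets.

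The intervals leave room for moderate differences, and for large ones in some markers. At 35 against 11.8 mM the 95% intervals were −1.16 to 2.52 for Cd74, −0.70 to 3.14 for H2-Aa and −2.055 to 0.045 for Arhgdib. The median SE of the markers was 0.29 on the log2 scale at 35 against 11.8 mM, beside 0.25 over all genes, and the smallest log2 change called there was 0.51 in size.

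**Figure D4:**
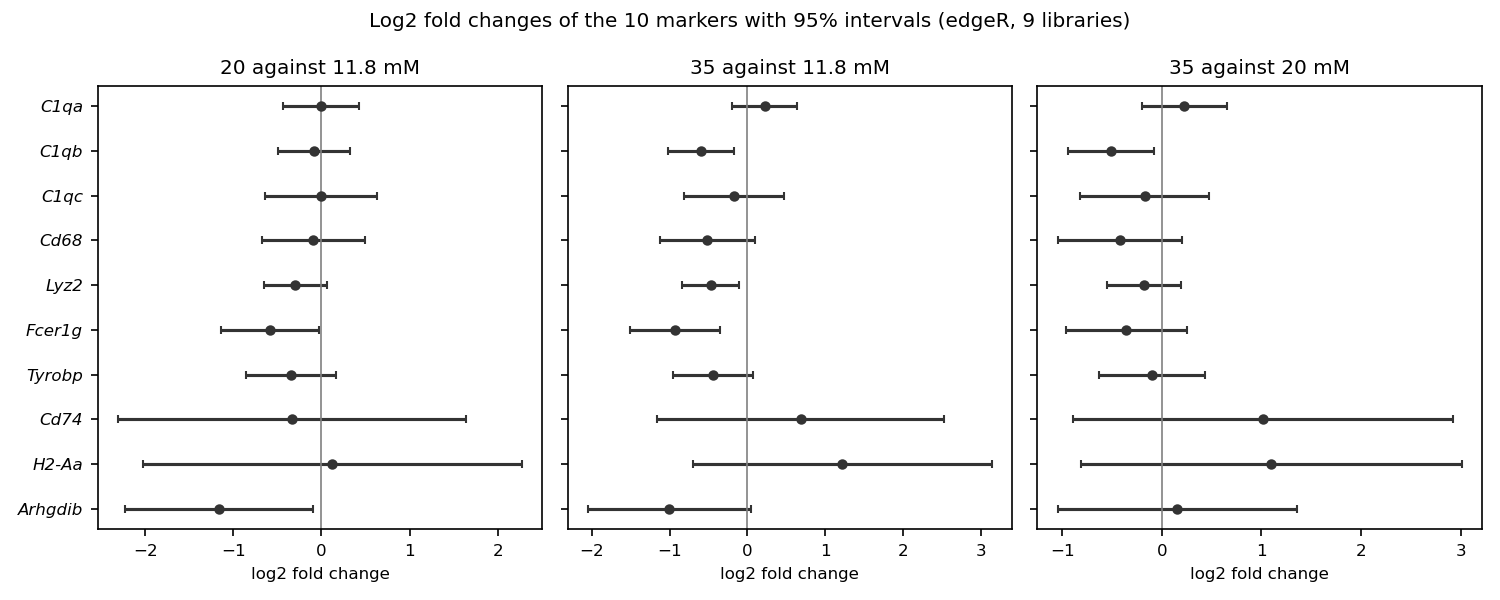
Log2 fold changes of the 10 markers (x axes) with 95% intervals from edgeR on 9 libraries, 1 panel per comparison. The intervals of Fcer1g, C1qb and Lyz2 lie below 0 at 35 against 11.8 mM, and those of Cd74 and H2-Aa are the widest in each panel.

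A second list of 22 macrophage and monocyte markers, chosen with earlier results of these data known, was in the table in full, and 13 of its genes were tested. None passed, 11 of 13 were negative at 35 against 11.8 mM, and the median was −0.29. Apoe, a lipid carrier that other islet and stromal cells can make too, was at −0.50 ± 0.15 (SE), with an adjusted p of 0.116 from edgeR. Mpeg1, a pore-forming protein of macrophages, was at −0.71 ± 0.27, with an adjusted p of 0.291. The summed level of this list was 242 to 283 CPM at 11.8 mM, 225 to 246 CPM at 20 mM and 191 to 211 CPM at 35 mM, so the 35 mM libraries lay below the others. Of 16 macrophage cytokines, chemokines and growth factors, 5 were tested and none passed, and Cxcl16, a chemokine and scavenger receptor, was at −0.60 ± 0.30 with an adjusted p of 0.503. Tgfb1, a growth factor that restrains inflammation, was at −0.28 ± 0.31 with an adjusted p of 0.851. Il1b had 12 to 33 counts per library and Tnf 0 to 2.

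Lists of other cell types were summed in the same way. The endothelial list was 13.8 to 20.5 CPM at 11.8 mM, 9.20 to 19.6 CPM at 20 mM and 9.89 to 11.6 CPM at 35 mM, so the 35 mM libraries lay below the controls but within the 20 mM range. Flt1, a receptor for vascular endothelial growth factor, was at −1.37 ± 0.44 (SE) with an adjusted p of 0.180 from edgeR, and Pecam1, an adhesion molecule of endothelial cells, was at −0.95 ± 0.45 with an adjusted p of 0.465. Of the dendritic cell list only Itgax, an integrin that macrophages make too, was tested, and it was at −1.43 ± 0.43 with an adjusted p of 0.137 from edgeR. Flt3 and Cd209a of that list were at 0 in all 9 libraries. The fibroblast and stellate cell list overlapped, at 370 to 637 CPM and 257 to 481 CPM, and 7 of its 8 tested genes were negative. The collagen genes Col1a2 and Col1a1 were at −0.60 ± 0.20 and −0.45 ± 0.22, with adjusted p-values of 0.259 and 0.468 from edgeR. Acinar and duct cell genes summed to 3040 to 10600 CPM at 11.8 mM and 5760 to 9050 CPM at 35 mM, and none of 9 tested passed, with Pnlip, a lipase, at 0.69 and Cela1, an elastase, at −0.63. Csf3r, the 1 tested gene of the granulocyte and mast cell list, was at −0.88 ± 0.52 with an adjusted p of 0.592. Among 8 islet endocrine genes, Ttr, a thyroxine carrier, and Iapp, the amylin precursor, rose at 35 mM, by 0.67 ± 0.13 and 0.63 ± 0.13 on the log2 scale, with adjusted p-values of 0.00528 and 0.00865 from edgeR. Without 35 mM replicate 1, Ttr and Iapp still passed, at adjusted p-values of 0.00783 and 0.0497 from edgeR. Pecam1 was then at −1.52, Col1a1 at −0.18, Csf3r at −0.54, Cela1 at −0.95 and Pnlip at 0.34. Flt1 was at −0.965, Itgax at −1.16, Col1a2 at −0.45 and Apoe, of the second macrophage list, at −0.40. Their adjusted p-values from edgeR were 0.550, 0.447, 0.535 and 0.459 without that library. The part of these cell types in the macrophage marker values was not tested.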

How the data were processed

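RNA from ICR islets was sequenced by CEL-Seq2, a 3′ tag method, from 3 ng of RNA per library, per the labels' protocols. The submitters' processing notes name cutadapt, TopHat, HTSeq, DESeq2 and GRCm38.p4. The deposited values are counts of reads per gene. They were not collapsed to the 4096 possible 6-base molecular identifiers, since 16 features exceed that number in a sub-library. The 3 sub-libraries of each sample were summed, and 92 spike-in RNAs and 5 summary lines (19.6% to 29.9% of reads) were left out. A further 30 columns of per-sample values were not used, because their names are not the labels. The strand setting of the counting is not given in the sources used here. Symbols matched 21781 identifiers and 267 did not match.

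Counts per 1000000 (CPM) used TMM-scaled library sizes. The test was edgeR 4.0.16 (quasi-likelihood, two-sided, filterByExpr, all 9 libraries, a mean per concentration), with Benjamini-Hochberg adjustment over 9739 genes. DESeq2 1.42.0 was an alternative. With 3 libraries against 3, an exact permutation test cannot go below 0.1 and was not used. Replicates of a group differed by more than independent read counts would. Because reads were not collapsed to molecules, repeated reads of 1 molecule cannot be told apart here from differences between replicates. The markers and lists were chosen with earlier results of these data known. Named genes were all 10 markers and, from each other list, up to 4 called genes or else the 2 with the smallest p at 35 against 11.8 mM. The genes compared in 35 mM replicate 1 and the counts given for identity genes, Il1b and Tnf were chosen after their values were seen. Promoter sequences are from RefSeq (GRCm38.p6), positions from GENCODE (GRCm38). The test was also run on counts simulated from its own fitted spread, with known changes added to some genes. Such counts do not show how the test behaves with a library such as 35 mM replicate 1.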

Additional observations from a re-analysis of the deposited data

How the results depend on the processing

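Of 538 marker values over 19 alternatives, 499 kept their direction and side of the threshold, 38 changed sign, and 1 passed the threshold. That one was Fcer1g at 35 against 11.8 mM without 11.8 mM replicate 1, so the number of markers called there was 0 to 1 with a library left out. Fcer1g ranged from −1.57 to −0.71 over its 17 alternatives, with adjusted p-values of 0.0495 to 0.677 (edgeR or DESeq2). Some markers were not tested in single sub-library sets or under the stricter filter, since their counts are low. Leaving 35 mM replicate 1 out of the values of the other lists' genes was chosen after seeing the data, and no sign turned.

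The replicate numbers of the titles share only a number, and the labels name no common mouse or day. Same-numbered libraries deviated with r of −0.295 to 0.119, over 0.1 in 1 of 9 pairs. With the replicate number as a block, 13, 74 and 3 genes were called at 20 against 11.8, 35 against 11.8 and 35 against 20 mM, and 0 markers in each.

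The 18 genes called at 20 against 11.8 mM became 34 with DESeq2, 51 with no filter, 11 from only the 2 concentrations, and 2 and 8 from the first and second sub-library sets. They ranged from 7 (without 20 mM replicate 1) to 35 (without 11.8 mM replicate 2), with 9 without 20 mM replicate 3. The 84 called at 35 against 11.8 mM became 148 with no filter and 12, 42 and 39 from single sets. They ranged from 40 (without 35 mM replicate 1) to 138 (without 11.8 mM replicate 1), with 50 without 11.8 mM replicate 3 and 54 without 35 mM replicate 2. The 3 called at 35 against 20 mM became 1 from each set, and ranged from 1 (without 20 mM replicate 3) to 7 (without 35 mM replicate 3). The cause was not tested beyond the fewer counts of single sets.

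Single sub-library sets turned small log2 values. At 20 against 11.8 mM these were C1qa at 0.25 (first set) and 0.075 (second), C1qb at 0.42 (set 3), C1qc at 0.093 and Cd68 at 0.10 (second). At 35 against 11.8 mM, C1qa was at −0.051 and Cd68 at 0.12 in the second set. At 35 against 20 mM, the second set gave C1qa −0.13, Cd68 0.014, Fcer1g 0.038 and Tyrobp 0.34, the first gave Lyz2 0.023 and set 3 gave Tyrobp 0.078.

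With 1 library left out, signs also turned within these ranges. At 20 against 11.8 mM they were C1qa −0.16 to 0.21, C1qb −0.21 to 0.063, C1qc −0.36 to 0.18, Cd68 −0.37 to 0.17 and H2-Aa −0.27 to 0.87. At 35 against 11.8 mM they were C1qc −0.42 to 0.041 and Cd74 −0.81 to 1.08. At 35 against 20 mM they were C1qc −0.41 to 0.18, Cd74 −0.48 to 1.41, H2-Aa −0.01 to 1.64, Tyrobp −0.29 to 0.006 and Arhgdib −0.43 to 0.71.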
